A study of Mus musculus with 2 samples.

Results

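Splenic regulatory T cells (Tregs) were described among the CD45+ splenocytes of mice given LCMV-cl13, the clone 13 strain of lymphocytic choriomeningitis virus, with which mice stay infected for weeks. A barcode was chosen by its measured counts of unique molecular identifiers (UMIs, each a captured transcript molecule). It had at least 1 UMI of Cd3e, none of Cd8a, Cd8b1, Cd79a or Csf1r, and at most 1 of Lyz2, and it had either a UMI of Foxp3 or UMIs of both Ikzf2 and Il2ra. Of 23397 barcodes, 74 passed, with 42 of 14821 from PEP-WT and 32 of 8576 from PEP-619WW mice. These counts chose the cells, so the levels of the genes in the rule are given as a description only.

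Tregs are CD4 T cells that restrain other T cells and keep self tolerance. The transcription factor Foxp3 fixes their identity, Ikzf2 encodes its partner Helios, and Il2ra encodes CD25, the high affinity chain of the receptor for interleukin-2. Tregs depend on interleukin-2 made by other cells, which signals through STAT5, and they act in part through the inhibitory receptor CTLA-4. In the spleen a resting, Tcf7-expressing pool and an activated, effector pool are distinguished. During chronic viral infection Tregs limit tissue damage and can also hold back antiviral T cells. On GRCm38, Foxp3 (ENSMUSG00000039521) lies on chromosome X from 7573644 to 7595245, Ikzf2 (ENSMUSG00000025997) on chromosome 1 from 69531214 to 69687245, and Il2ra (ENSMUSG00000026770) on chromosome 2 from 11642807 to 11693193.

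PEP-WT mice were C57BL/6 mice with the wild type Ptpn22 gene, which encodes the phosphatase PEP. PEP-619WW mice carried the R619W change of that protein, made by CRISPR/Cas9 on the same background, in all cells and not only in T cells. Both groups were infected intravenously with 1000000 PFU and examined at day 8, mice of the study were 6 to 12 weeks old, and no mock infected library was analysed here. Splenocytes of 4 to 5 mice per genotype, matched for age and sex, were pooled and sorted for live CD45+ cells, so each genotype is 1 library and differences between mice cannot be seen. The sample labels name liver, a human T cell line and tumor infiltrating cells, whereas the design text describes spleen.

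The libraries held 77916082 UMIs (PEP-WT) and 56745578 UMIs (PEP-619WW), with medians of 2832 and 3293 UMIs per barcode. They shared 39 barcode sequences, and no Treg barcode was among them. A second library was deposited under each genotype label, with 9539 (PEP-WT) and 11029 (PEP-619WW) barcodes. The cell numbers in the study's methods are those of this second set and not those of the libraries used here. The second set held barcodes with at least 2 of the melanocyte genes Pmel, Mlana, Dct and Tyrp1 (735 in PEP-WT and 99 in PEP-619WW), where the libraries used here held 0. The sets also differed in sex-linked transcripts. Over all barcodes, the libraries used here had 64344 (PEP-WT) and 45556 (PEP-619WW) UMIs of Xist and 3 and 0 UMIs of the Y-linked genes Ddx3y, Eif2s3y, Kdm5d and Uty. The second PEP-619WW library had 5 Xist and 8893 Y-linked UMIs, and the second PEP-WT library had 18435 and 4892. By these genes the second libraries do not come from the same pools of mice, so they are not repeats of the libraries used here. Whether they come from spleen or from infected mice was not established, and their values are set beside the main ones with those limits. The tissue, day, dose and pooling given for the libraries used here are those of the study's description. As its cell numbers are not theirs, these details could not be tied to them by the counts.

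Most Tregs were chosen by Foxp3. In PEP-WT, 28 of 42 had a Foxp3 UMI, 14 of these also had both Ikzf2 and Il2ra, and the other 14 Tregs entered by Ikzf2 and Il2ra alone. In PEP-619WW the numbers were 23 of 32 with Foxp3, 14 of them with both other genes, and 9 without Foxp3. Ikzf2 was seen in 25 of 28 and in 22 of 23 Foxp3+ cells, and Il2ra in 15 of 28 and in 14 of 23. The threshold on Foxp3 was low, as 14 PEP-WT and 13 PEP-619WW Tregs had exactly 1 Foxp3 UMI and the highest counts were 4 and 6. Just outside the rule, 151 PEP-WT and 101 PEP-619WW CD8-negative T cells had Ikzf2 alone, and 10 and 4 had Il2ra alone. Barcodes with the Treg genes that failed on Cd3e only numbered 30 and 8, those that failed on Cd8a or Cd8b1 only 16 and 14, and those that failed on Cd79a only 8 and 4.

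The depth of the Tregs differed between the libraries. PEP-WT Tregs had a median of 3216.5 UMIs (range 543 to 46679) and 1476.5 genes, and PEP-619WW Tregs a median of 4770 UMIs (range 1929 to 18481) and 1922 genes. The deepest PEP-WT Treg alone held 16.1% of all Treg UMIs of its library and the deepest PEP-619WW Treg held 9.42%. Mitochondrial genes took 2.00% and 2.94% of Treg UMIs. No doublet caller was run, so very deep barcodes may hold more than 1 cell.

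**Figure D1:**
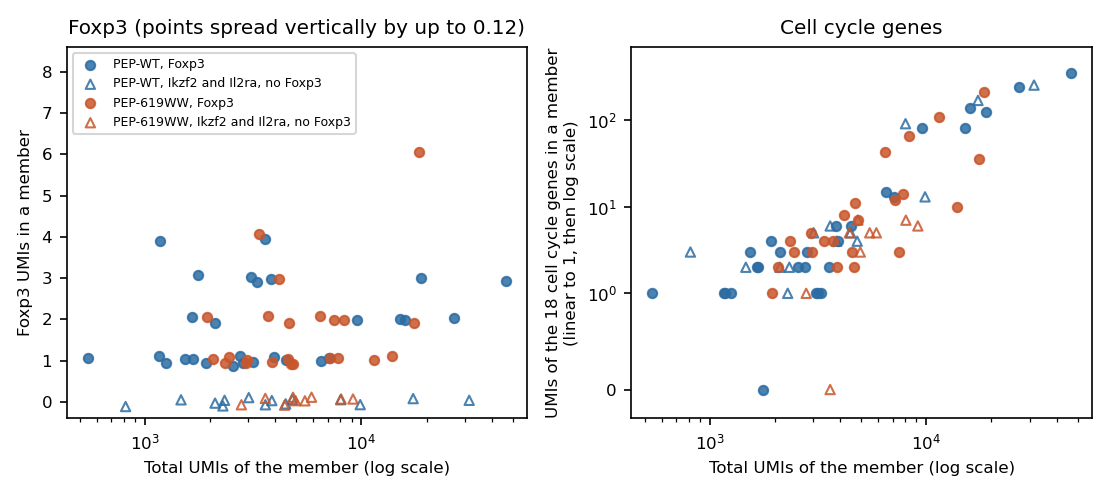
Each point is 1 of the 74 Tregs, plotted by its total UMIs (log scale) against its Foxp3 UMIs (left) and the summed UMIs of 18 cell cycle genes (right, linear to 1 and then log scale), with filled circles for Foxp3+ cells and open triangles for cells chosen by Ikzf2 and Il2ra. Most Foxp3+ cells have 1 or 2 Foxp3 UMIs, and the cell cycle UMIs sit in a few deep cells, with up to 346 in 1 PEP-WT and 210 in 1 PEP-619WW Treg.

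Tregs were a small share of the splenocytes in both genotypes. Of the PEP-WT barcodes 0.283% were Tregs, with an exact Clopper-Pearson 95% interval from 0.204 to 0.383%. The PEP-619WW share was 0.373%, from 0.255 to 0.526%. The difference was 0.09 percentage points (Newcombe 95% interval -0.06 to 0.26), which was not detectable at this depth. Among CD8-negative T cells, defined by the same rule without the Treg genes, Tregs were 7.37% in PEP-WT (5.36 to 9.83%, 42 of 570) and 10.96% in PEP-619WW (7.62 to 15.1%, 32 of 292). That difference of 3.59 points had an interval of -0.35 to 8.10, so the higher PEP-619WW share could not be told from an equal one under this rule. With a Cd4 UMI required of the Tregs and of the CD8-negative T cells alike, they were 12 of 211 (5.69%) and 17 of 164 (10.4%), a difference of 4.68 points (-0.83 to 10.8). With Cd4 required of the Tregs alone the differences were 3.72 points (1.07 to 7.14) of CD8-negative T cells and 0.117 points (0.021 to 0.241) of all barcodes, but Cd4 was itself detected more often in PEP-619WW, also in the other CD8-negative T cells. Barcodes with UMIs of other cell types were also taken out of the Tregs and of both denominators. The differences were then 7.43 points (-0.31 to 17.4) of CD8-negative T cells and 2.01 points (0.31 to 4.53) of the barcodes left. Tregs were 1.24% and 3.24% of the barcodes left, which is not a share of all splenocytes. With each barcode thinned to 1000 UMIs before the rule they were 0.037 points (-2.42 to 3.12) and 0.0079 points (-0.073 to 0.115). Foxp3+ Tregs alone were 4.91% and 7.88% of CD8-negative T cells. Intervals here and below cover counting error only, not the spread between mice, and no test between genotypes was possible with 1 library each.

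Foxp3 was rare in cells that should lack it, which gives the background from free RNA. A Foxp3 UMI was found in 5 of 7723 PEP-WT and 1 of 3769 PEP-619WW B cells (0.0647% and 0.0265%, at medians of 2591 and 3190 UMIs) and in 2 of 964 and 2 of 597 CD8 T cells (0.207% and 0.335%, at medians of 4361.5 and 6726 UMIs). Il2ra and Ikzf2 were more widespread. Il2ra was seen in 54 of 964 PEP-WT and 77 of 597 PEP-619WW CD8 T cells, and Ikzf2 in 16.8% and 12.4% of them, against 0.686% and 0.478% of B cells for Ikzf2.

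Cd4, which marks the lineage of Tregs and was not part of the rule, was detected in 12 of 42 PEP-WT Tregs (28.6%, 15.7 to 44.6%) and in 17 of 32 PEP-619WW Tregs (53.1%, 34.7 to 70.9%). The PEP-619WW share was higher by 24.6 points (2.13 to 44.2). The other CD8-negative T cells, which were not chosen by Cd4 either, had it in 37.7% and 56.5%, a difference of 18.8 points in the same direction. The PEP-WT Tregs were also shallower. Scaled to the total UMIs of the Tregs, Cd4 was higher in PEP-619WW, on 19 PEP-WT and 37 PEP-619WW UMIs (log2 ratio 1.53). Without the cell richest in Cd4 in each library the log2 ratio was 1.74 (0.82 to 2.74). With each barcode thinned to 1000 UMIs before the rule, 0 and 1 Cd4 UMIs were left, too few to be tested. The part of depth in the difference between the shares of cells was not tested.

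To see whether the 74 cells carried the Treg program beyond the 3 genes that chose them, 7 further Treg markers were counted in each cell (Ctla4, Tnfrsf18, Tnfrsf4, Izumo1r, Nrp1, Ikzf4 and Gpr83). Every PEP-WT Treg had at least 1 of them and 31 of 42 had at least 3. In PEP-619WW, 30 of 32 had at least 1 and 27 had at least 3, and the 2 cells with none were 1 Foxp3+ cell and 1 chosen by Ikzf2 and Il2ra. After each cell was reduced at random to 1000 UMIs (2 shallower PEP-WT Tregs dropped out), a Treg had a mean of 2.17 of the 7 markers in PEP-WT and 2.12 in PEP-619WW. Conventional CD4 T cells had 0.714 and 0.633, CD8 T cells 0.178 and 0.232, and B cells 0.0342 and 0.0331. Here conventional CD4 T cells are CD8-negative T cells with a Cd4 UMI, without Foxp3 and without the pair of Ikzf2 and Il2ra (199 in PEP-WT and 147 in PEP-619WW).

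At this common depth Tnfrsf4, which encodes the costimulatory receptor OX40, was seen in 60% of PEP-WT Tregs (43.3 to 75.1%) and 43.8% of PEP-619WW Tregs (26.4 to 62.3%), against 18.4% and 17.0% of conventional CD4 T cells. Ctla4 was seen in 42.5% and 46.9% of Tregs and in 14.8% and 13.6% of conventional cells. In B cells, a background for free RNA, Tnfrsf4 was at 0.372% and 0.368% and Ctla4 at 0.678% and 0.990%. These Treg markers, which the rule did not use, were thus more frequent in the chosen cells than in conventional CD4 T cells and B cells.

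**Figure D2:**
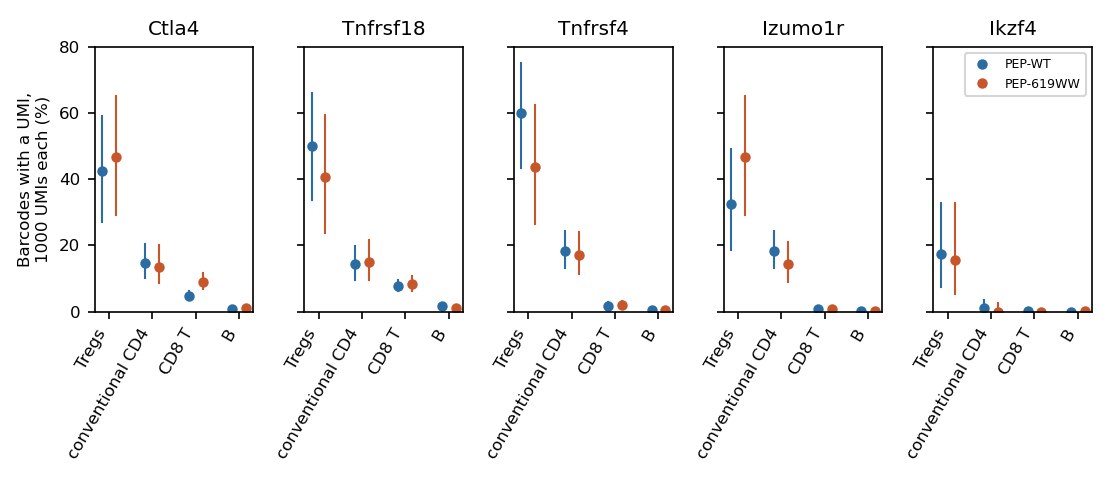
Percentage of barcodes with at least 1 UMI of 5 of the 7 Treg markers, without Nrp1 and Gpr83, after thinning to 1000 UMIs. Groups are Tregs, conventional CD4 T cells, CD8 T cells and B cells of each library, and lines are exact 95% binomial intervals. Tregs are the highest of the 4 groups for each gene in both libraries, from 15.6% (Ikzf4, PEP-619WW) to 60% (Tnfrsf4, PEP-WT).

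The levels of all genes were then compared between Tregs and conventional CD4 T cells of the same library, as counts summed over the cells per 1000000 UMIs (CPM). Of 5774 genes with at least 50 UMIs, 58 (1.00%) were counted as higher and 91 (1.58%) as lower in Tregs. A gene was counted when the mean of its 2 log2 ratios passed 2-fold and the 95% counting interval left out equal levels on the same side in both libraries. The median log2 ratio over all 5774 genes was -0.04. Among the genes counted as higher were markers of other cell types. Of the 8 erythroid genes 4 were tested and 3, Hbb-bs, Hbb-bt and Hba-a1, were counted as higher (list median 2.36), with the summed list at 3975 and 347 CPM in Tregs against 1107 and 55.9 CPM, and 1 Treg of each library held 95.4% and 88.2% of those UMIs. Of the 10 B cell genes 4 were tested and 1, Cd74, was counted as higher (200 and 178 CPM against 137 and 55.9 CPM, mean log2 ratio 1.11), while the summed list was at 355 and 321 CPM against 376 and 215 CPM. The part of these cells' RNA in the other ratios was not tested.

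Other Treg transcription factors gave no call. Of 12 listed, 10 were tested, 5 had a ratio above 1 and none was counted. Ikzf4 encodes Eos, a relative of Helios. It had 17 and 23 UMIs in PEP-WT and PEP-619WW Tregs against 4 and 0 in conventional cells, too few in sum to be tested, at 58.6 and 117 CPM against 4.07 and 0 CPM. Satb1, Foxo1 and Bach2 had mean log2 ratios of 0.08, 0.24 and 0.39, and Foxp1 and Runx1 of -0.73 and -0.70.

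In the interleukin-2 pathway, Il2rb and Cish were counted as higher in Tregs. Il2rb, the signaling chain shared with interleukin-15, was at 334 CPM in PEP-WT and 449 CPM in PEP-619WW Tregs against 162 and 227 CPM in conventional cells (mean log2 ratio 1.01). Cish, a STAT5 target and feedback inhibitor, was at 89.5 and 133 CPM against 12.2 and 22.0 CPM (mean log2 ratio 2.73, with intervals of 1.84 to 4.00 and 1.72 to 3.48 in the libraries). Socs2, another STAT5 target, was at 20.7 and 35.7 CPM against 0 and 6.98 CPM and had too few UMIs to be tested. In the second PEP-619WW library Il2rb and Cish were not counted, with log2 ratios of 0.78 (0.52 to 1.04) and 0.61 (0.13 to 1.11). Of the 14 genes of this list 11 were tested, 2 were higher and 1, the survival gene Bcl2, was lower (mean log2 ratio -1.06). Il2rg, Jak1 and Il7r had mean log2 ratios of -0.26, -0.29 and -0.13.

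Among suppressor molecules Ctla4 was the only one counted as higher. It reached 324 and 484 CPM in Tregs against 136 and 141 CPM (mean log2 ratio 1.52). Lrrc32, which encodes GARP, the surface anchor of latent TGF-beta, was at 51.7 and 138 CPM in Tregs, on 15 and 27 UMIs. In conventional CD4 T cells it was at 2.04 and 0.998 CPM. Itgb8, an integrin chain that frees TGF-beta, was at 34.4 and 91.8 CPM against 10.2 and 10.98 CPM. Lrrc32 and Itgb8 had fewer than 50 UMIs in sum and were not tested. Tgfb1 itself had a mean log2 ratio of 0.31. Il10 had 6 and 1 UMIs in Tregs, and Pdcd1, which encodes PD-1, was lower in Tregs (93.0 and 51.0 CPM against 208 and 151 CPM).

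In the list of TNF receptors and costimulatory molecules, the 4 genes counted as higher were all TNF receptors. Of the 10 genes, all tested, 4 were higher and 1 was lower in Tregs, and the median log2 ratio of the list was 0.74 against -0.04 over all genes. Tnfrsf4 was at 988 and 841 CPM against 302 and 246 CPM (mean log2 ratio 1.74). Tnfrsf18, which encodes GITR, was at 475 and 484 CPM against 148 and 142 CPM (1.73). Tnfrsf9 (4-1BB) was at 269 and 219 CPM against 120 and 47.9 CPM (1.68), and Tnfrsf1b (the TNF receptor 2) at 134 and 199 CPM against 50.9 and 81.8 CPM (1.34). The ratios of Tnfrsf4 and Tnfrsf18 in the libraries differed by less than their counting intervals. Cd200 was lower, and Icos, Cd28 and Cd27 had mean log2 ratios of -0.36, -0.16 and 0.08.

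Izumo1r, which encodes the folate receptor 4 of Tregs, separated the libraries. It was at 627 CPM in PEP-619WW Tregs and 147 CPM in PEP-619WW conventional cells (log2 ratio 2.10, 1.74 to 2.45). In PEP-WT the levels were 238 and 229 CPM (0.05, -0.36 to 0.45), so the gene was not counted over both libraries. Of the other Treg signature genes, Swap70, Cd81 and Hopx were higher in Tregs. Swap70, which binds the cytoskeleton, had a mean log2 ratio of 2.61 and Cd81, a tetraspanin, of 1.35, and Hopx had log2 ratios of 1.89 and 1.11. Gpr83 was at 20.7 and 91.8 CPM against 1.02 and 3.99 CPM.

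Among the 10 higher genes whose interval lay farthest from equal levels, Bmyc, Myc, Pmepa1, Gnl3 and Odc1 were in no list. Bmyc and Myc are related transcription factors, Odc1 makes polyamines and Gnl3 is nucleolar. Bmyc was at 258 and 199 CPM in Tregs against 38.7 and 29.9 CPM, and Myc at 107 and 112 CPM against 23.4 and 25.9 CPM. A single cell gave 40.0% of the Bmyc and 41.9% of the Myc UMIs in PEP-WT, and 40.9% of the Myc UMIs in PEP-619WW.

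**Figure D3:**
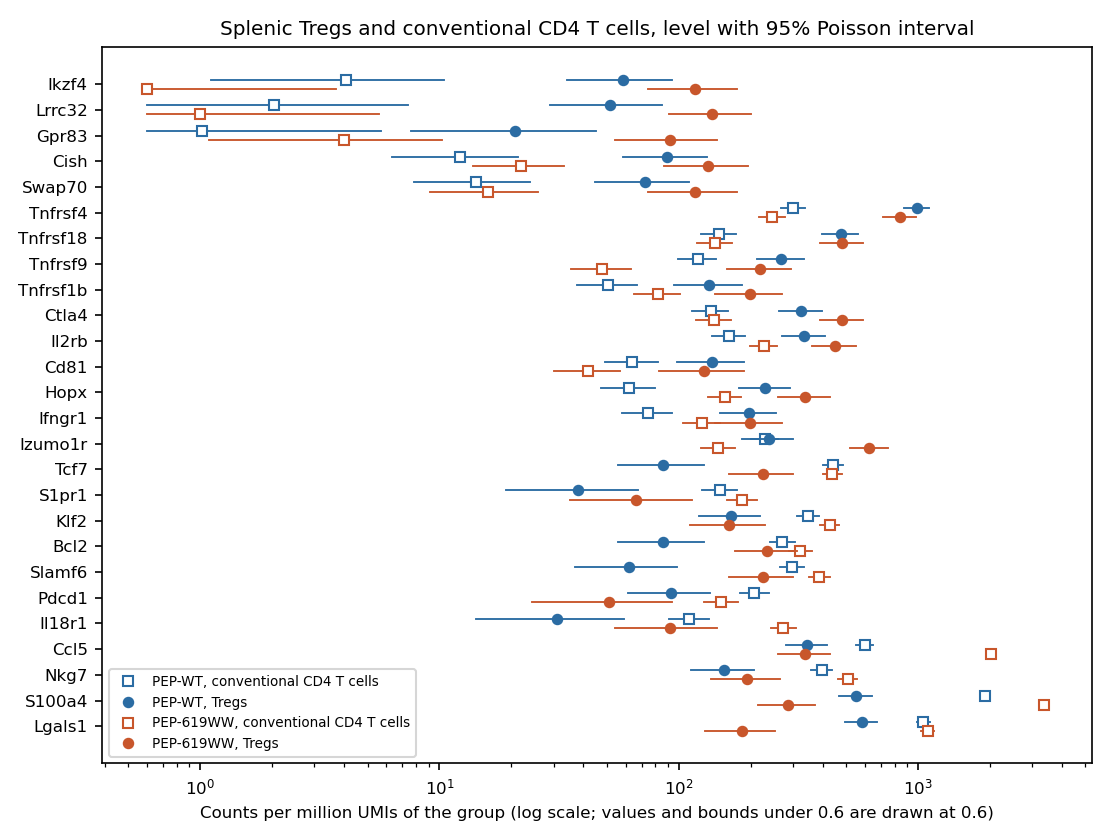
Levels in CPM (log scale) of 26 genes in Tregs (filled circles) and conventional CD4 T cells (open squares) of each library, with 95% Poisson intervals, and values under 0.6 drawn at 0.6. The upper genes, such as Tnfrsf4 at 988 and 841 CPM, are higher in Tregs, and the lower genes, such as Tcf7 at 86.1 and 224 CPM, are higher in conventional cells.

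Several effector genes were lower in Tregs. Of 12 effector Treg genes tested, 5 were lower and none was higher (median log2 ratio -1.05). S100a4 was at 551 and 286 CPM in Tregs against 1902 and 3356 CPM in conventional cells, and S100a6 at 582 and 326 CPM against 1603 and 2833 CPM. Lgals1, which encodes galectin-1, was at 582 and 184 CPM against 1055 and 1101 CPM. Cd44 and Id2 were lower as well. These genes are also used by activated helper T cells, and their levels were the higher ones in the conventional cells of both libraries.

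Of 11 Th1 genes tested, 4 were lower and 1 was higher in Tregs. Ifng was at 44.8 and 10.2 CPM against 162 and 107 CPM, and the chemokine gene Ccl5 at 344 and 337 CPM against 600 and 2032 CPM. Il18r1 and Nkg7 were also lower (mean log2 ratios -1.71 and -1.37). The gene counted as higher was Ifngr1, which encodes the receptor for interferon gamma (196 and 199 CPM against 74.3 and 125 CPM). Tregs thus had less of the Th1 cytokine transcript and more of the transcript for its receptor than conventional cells.

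Of 8 follicular genes tested, 4 were lower (Pdcd1, Il21, Sostdc1 and Slamf6) and none was higher. Il21, the helper cytokine of follicular T cells, had 2 and 0 UMIs in Tregs and 54 and 62 in conventional cells. Of 9 central and homing genes tested, Tcf7, S1pr1, Klf2 and Bcl2 were lower and none was higher. Tcf7, the transcription factor of resting T cells, was at 86.1 and 224 CPM against 443 and 440 CPM, and S1pr1, which lets T cells leave the spleen, at 37.9 and 66.3 CPM against 149 and 185 CPM. Ccr7, a lymph node homing receptor, had a mean log2 ratio of 0.83 and was not counted.

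Among the 10 lower genes whose interval lay farthest from equal levels, those in no list were Lgals3, Ccl3, Ccl4, Themis, Anxa2, Ahnak and Cd40lg. Lgals3 had 3 and 2 UMIs in Tregs and 250 and 383 in conventional cells. Themis, a regulator of T cell receptor signaling, had 2 and 4 UMIs in Tregs and 86 and 136 in conventional cells. Cd40lg, through which helper T cells stimulate B cells, had 1 and 0 UMIs in Tregs and 51 and 46 in conventional cells. The conventional cells were chosen with a Cd4 UMI and the Tregs were not, so their difference in Cd4 is part of the choice.

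The second PEP-619WW library came from other mice and held barcodes with melanocyte genes, and its tissue and infection were not established. Gated in the same way, it gave 174 Tregs (134 with Foxp3, 106 with Cd4) and 133 conventional cells. The second PEP-WT library gave only 4 Tregs and 1 conventional cell. In this PEP-619WW library Ctla4 was at 459 CPM in Tregs against 85.5 CPM, Tnfrsf9 at 582 against 98.0 CPM, Tnfrsf4 at 912 against 342 CPM and Ikzf4 at 103 against 12.5 CPM. Not all Treg markers went this way. Nrp1, 1 of the 7 further markers, was counted as lower in Tregs there (38.0 against 164 CPM, log2 ratio -2.11, -2.66 to -1.58). So was Penk of the other signature list (-2.94, -3.19 to -2.68), and Izumo1r was not counted (0.88, 0.41 to 1.37). Of the 58 genes higher in Tregs, 48 could be tested there, 40 had the same direction and 14 were counted as higher. Of the 91 lower genes 68 could be tested, 53 had the same direction, 29 were counted as lower and 4 as higher. Tcf7 and Themis were lower there as well (log2 ratios -2.80 and -2.88), as was Id2 (-1.18, -1.35 to -1.01), whereas other effector genes did not keep their direction or call. S100a6 was counted as higher (1.02, 0.89 to 1.15), as was Ccl3 (1.29, 0.53 to 2.14), Lgals1 was at 0.59 (0.47 to 0.70), S100a4 at -0.08 (-0.20 to 0.04) and Cd44 at -0.25 (-0.59 to 0.10). Cd81 and Hopx, higher above, were at 0.03 (-0.32 to 0.40) and 0.30 (-0.03 to 0.63).

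Tregs with a Foxp3 UMI and those chosen by Ikzf2 and Il2ra were compared within each library. Below, Foxp3-negative means without a Foxp3 UMI. Tnfrsf4 had log2 ratios of 0.34 and 0.16 (Foxp3+ over Foxp3-negative) and intervals that held equal levels in both libraries, and so did Il2rb (0.58 and 0.01) and Ikzf4 (0.67 and -0.08). Other Treg markers differed between the routes. Gpr83 was lower in Foxp3+ cells of both libraries (-3.35, -8.92 to -0.19, on 1 against 5 UMIs, and -2.23, -3.84 to -0.73, on 7 against 11). Tnfrsf18 was higher in Foxp3+ cells of PEP-WT (0.82, 0.22 to 1.45) and Ctla4 in those of PEP-619WW (0.84, 0.03 to 1.74), where Izumo1r (-0.74, -1.29 to -0.17) and Tnfrsf9 (-1.24, -2.17 to -0.29) were lower. These 4 genes had intervals that held equal levels in the other library. The Foxp3-negative cells held most UMIs of Ccl5, Nkg7 and Ifng. Of the Ccl5 UMIs, 81 lay in 14 Foxp3-negative and 19 in 28 Foxp3+ PEP-WT Tregs, and 45 in 9 and 21 in 23 PEP-619WW Tregs. Nkg7 had 40 against 5 UMIs in PEP-WT and 24 against 14 in PEP-619WW. All 13 and 2 Ifng UMIs were in Foxp3-negative cells. A single cell gave 75.0% of the Ccl5 UMIs in PEP-WT and 65.2% in PEP-619WW. The transcripts of Ccl5, Nkg7 and Ifng were thus carried mainly by cells that entered without a Foxp3 UMI, but other Th1 and cytotoxic genes went either way. Cxcr3 had 10 UMIs in Foxp3+ and 4 in Foxp3-negative PEP-WT Tregs, and 18 and 4 in PEP-619WW. For Ifngr1 these were 52 and 5, and 27 and 12. Gzmb had 16 and 26 in PEP-WT but 9 and 3 in PEP-619WW, and Cxcr6 had 0 and 6, and 0 and 1.

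Between the genotypes, Tregs were compared by the same summed counts. Of 1466 genes with at least 50 UMIs in the 74 Tregs, 69 (4.71%) were counted as higher and 141 (9.62%) as lower in PEP-619WW, that is past 2-fold with a 95% counting interval that left out equal levels. The median log2 ratio over all tested genes was -0.16, and 40.7% of genes were higher in PEP-619WW. Once the deepest Treg of each library was left out, 52 genes were higher and 105 lower, with 48 of the 69 and 77 of the 141 among them. With each cell weighing the same all could be tested, and 27 of the 69 and 39 of the 141 were still past 2-fold. In the second libraries, with 4 PEP-WT Tregs, 8 of the 61 higher and 16 of the 134 lower genes that could be tested were counted the same way. There, 2 of the 134 were counted the opposite way. With members chosen by Foxp3 alone 27 were higher and 76 lower, and with 12 PEP-WT and 11 PEP-619WW Tregs free of UMIs of other cell types 2 were higher and 2 lower. None of these was among the 69 or the 141 genes, of which only 4 and 2 could be tested there. The Tregs of the libraries differed in depth, with medians of 3216.5 and 4770 UMIs per cell. With each Treg thinned to 1000 UMIs, 0 genes were higher and 5 lower, 1 of them among the 141, but only 3 of the 69 and 6 of the 141 could be tested. Thinned before the rule, 0 were higher and 1 lower, the 1 gene of the 141 that could be tested.

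The genes of the rule were at 179 and 204 CPM (Foxp3), 644 and 1178 CPM (Ikzf2) and 207 and 301 CPM (Il2ra) in PEP-WT and PEP-619WW Tregs, as a description. Ptpn22, the gene that carries the change, lies on chromosome 3 of GRCm38 from 103859795 to 103912247. It had 30 UMIs in 18 PEP-WT Tregs and 33 UMIs in 18 PEP-619WW Tregs, at 103 and 168 CPM. The log2 ratio was 0.70 (-0.05 to 1.47), so a difference was not detectable at this depth, and the count table does not show the base change itself. In conventional cells Ptpn22 was at 187 and 241 CPM.

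Tcf7 and Bcl2, of the central list, were counted as higher in PEP-619WW Tregs. Tcf7 was at 86.1 CPM (25 UMIs in 11 cells) in PEP-WT and 224 CPM (44 UMIs in 16 cells) in PEP-619WW, a log2 ratio of 1.38 (0.64 to 2.15). Bcl2 was at 86.1 and 235 CPM (1.45, 0.71 to 2.21). Of 5 central genes tested these 2 were higher and none was lower, and the list median was 0.81 against -0.16 over all genes. Il7r, the receptor of interleukin-7, was at 165 and 291 CPM (0.81, 0.23 to 1.40), short of 2-fold. Slamf6 and Tbc1d4, of the follicular list, were at 62.0 and 224 CPM and at 110 and 275 CPM. The summed ratio of the central list was 0.72. It was 0.34 (0.02 to 0.66) with Foxp3+ cells only. With each Treg thinned to 1000 UMIs it was 0.41 (-0.11 to 0.94), which held equal levels. It turned to -0.83 (-1.37 to -0.29) in the cells free of UMIs of other cell types.

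Among receptors, Izumo1r was at 238 CPM (69 UMIs in 24 cells) in PEP-WT and 627 CPM (123 UMIs in 27 cells) in PEP-619WW Tregs, a log2 ratio of 1.40 (0.96 to 1.85). When each cell weighed the same the ratio was 0.72. Cd27, a costimulatory receptor, was at 176 and 357 CPM (1.02, 0.48 to 1.57), and 0.997 without the cell richest in it in each library. Tnfrsf18 (0.03, -0.37 to 0.41), Tnfrsf4 (-0.23, -0.52 to 0.05) and Tnfrsf9 (-0.29, -0.87 to 0.26) had intervals that held equal levels. Ctla4 was at 324 and 484 CPM (0.58, 0.15 to 1.01), but at -0.77 (-1.60 to 0.09) in the cells free of UMIs of other cell types. For these 4 genes of Treg function the intervals left out a 2-fold difference except at the upper bound of Ctla4.

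Of 8 interleukin-2 pathway genes tested, only Bcl2 was counted, and all 8 had ratios above 1 (list median 0.60). The summed ratio of the list was 0.65 (0.46 to 0.85), and it turned to -0.46 (-0.85 to -0.06) in the cells free of UMIs of other cell types and to -0.22 (-1.01 to 0.53) with each barcode thinned before the rule. Il2rb was at 0.43 (-0.01 to 0.86) and Cish at 0.57 (-0.28 to 1.41). The direction was not particular to this list. All 12 T cell identity genes tested also had ratios above 1, and 1 of them, Cd4, was counted as higher. The median of the T cell identity list was 0.42 and its summed ratio 0.40 (0.29 to 0.50). The transcription factor Nfatc1 was at 82.7 and 178 CPM (1.11, 0.32 to 1.92), and Foxp1 at 48.2 and 163 CPM on 46 UMIs in all.

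Type I interferon response genes gave no call. Of 18 listed, 7 were tested, 4 had a ratio above 1 and none was counted in either direction. Ifi27l2a was at 3351 and 4360 CPM (0.38, 0.25 to 0.51), while Isg15 was at 296 and 209 CPM (-0.50, -1.08 to 0.05) and Bst2 at 472 and 388 CPM (-0.28, -0.71 to 0.13). The summed log2 ratio of the list was 0.29, and it changed sign without the deepest Treg of each library (-0.06) and with each Treg thinned to 1000 UMIs (-0.47). Of 10 T cell receptor signaling genes tested none was counted. Lck and Fyn, the Src family kinases that PEP acts on, were at 0.70 (0.22 to 1.19) and 0.92 (0.34 to 1.501), and Csk and Zap70 at -0.24 (-1.03 to 0.52) and -0.14 (-0.89 to 0.59).

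Of 5 effector genes tested, Lgals1 alone was counted as lower in PEP-619WW Tregs. Lgals1 was at 582 CPM (169 UMIs in 24 cells) in PEP-WT and 184 CPM (36 UMIs in 15 cells) in PEP-619WW, a log2 ratio of -1.66 (-2.23 to -1.14). It stayed between -1.37 and -1.93 with Foxp3+ cells only, with each cell weighing the same, without the deepest cells and without the cell richest in it. S100a4 and S100a6 were at -0.95 (-1.41 to -0.50) and -0.83 (-1.27 to -0.41), short of 2-fold. In Foxp3+ cells S100a4 turned, at 282 CPM in PEP-WT and 313 CPM in PEP-619WW, and 105 of its 160 PEP-WT UMIs lay in 4 Foxp3-negative cells. The summed effector list was at -0.62 (-0.81 to -0.43) in all Tregs and at -0.24 (-0.46 to -0.01) in Foxp3+ cells. In the cells free of UMIs of other cell types it was at -0.11 (-0.59 to 0.38), which held equal levels. With each Treg thinned to 1000 UMIs it was at -0.90 (-1.37 to -0.44). Batf and Maf had intervals that held equal levels. Prdm1, which encodes Blimp-1 of effector Tregs, had 15 UMIs in 6 PEP-WT and 1 UMI in 1 PEP-619WW Treg and was not tested. Gzmb, which encodes a cytotoxic protease and stands in the suppressor list, was counted as lower (-1.24, -2.30 to -0.29). It had 42 UMIs in 3 PEP-WT and 12 UMIs in 4 PEP-619WW Tregs, with 61.9% and 58.3% of them in 1 cell each, and without those cells it was no longer counted (-1.08, -2.89 to 0.43).

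Cell cycle genes were the list with the most calls. Of 13 tested, 8 were counted as lower in PEP-619WW, none as higher, and none had a ratio above 1 (list median -1.42 against -0.16 over all genes). Mki67 was at 196 CPM in PEP-WT and 71.4 CPM in PEP-619WW (-1.46, -2.42 to -0.60), Stmn1 at 427 and 148 CPM (-1.53, -2.17 to -0.94), Pcna, the sliding clamp of DNA replication, at 272 and 86.7 CPM (-1.65, -2.50 to -0.88) and Pclaf at 286 and 30.6 CPM (-3.22, -4.71 to -2.04). These levels came from few cells. The 5 richest Tregs held 69.8% of the 1650 cell cycle UMIs in PEP-WT and 77.2% of the 602 in PEP-619WW, and the median Treg had 3.5 and 5 of them.

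The share of cells with a proliferation transcript was close to equal before depth was matched. A UMI of Mki67 or Top2a was found in 10 of 42 PEP-WT Tregs (23.8%, 12.1 to 39.5%) and 7 of 32 PEP-619WW Tregs (21.9%, 9.28 to 40.0%), a difference of -1.93 points (-20.2 to 17.9). At 1000 UMIs per cell it was 4 of 40 (10.0%) and 1 of 32 (3.12%). In conventional cells it was 11.7% and 13.6% at that depth. At least 20 cell cycle UMIs were seen in 9 PEP-WT and 5 PEP-619WW Tregs. With each cell weighing the same 2 of the 8 genes, Pclaf and Stmn1, were still past 2-fold, and with Foxp3+ cells only 2 of the 6 that could be tested, Pclaf and Pcna. The deepest Treg of each library was also the one with the most cell cycle UMIs, and without both cells 5 of the 8 genes could be tested and all 5 were counted as lower. The summed ratio of the list was -0.89 (-1.03 to -0.75) in all Tregs, -0.54 (-0.69 to -0.40) in Foxp3+ cells, and -1.28 (-1.44 to -1.11) without the deepest Treg of each library. In the second libraries, whose PEP-WT side is 4 cells, it was -0.30 (-0.45 to -0.15). There, of the 8 genes 1 was counted as lower and 1, Stmn1, as higher (1.17, 0.35 to 2.13), and Pcna was at 0.02. At 1000 UMIs per Treg the summed ratio was -0.39 (-0.85 to 0.07), which held equal levels, and in the cells free of UMIs of other cell types 0.25 (-0.39 to 0.93).

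**Figure D4:**
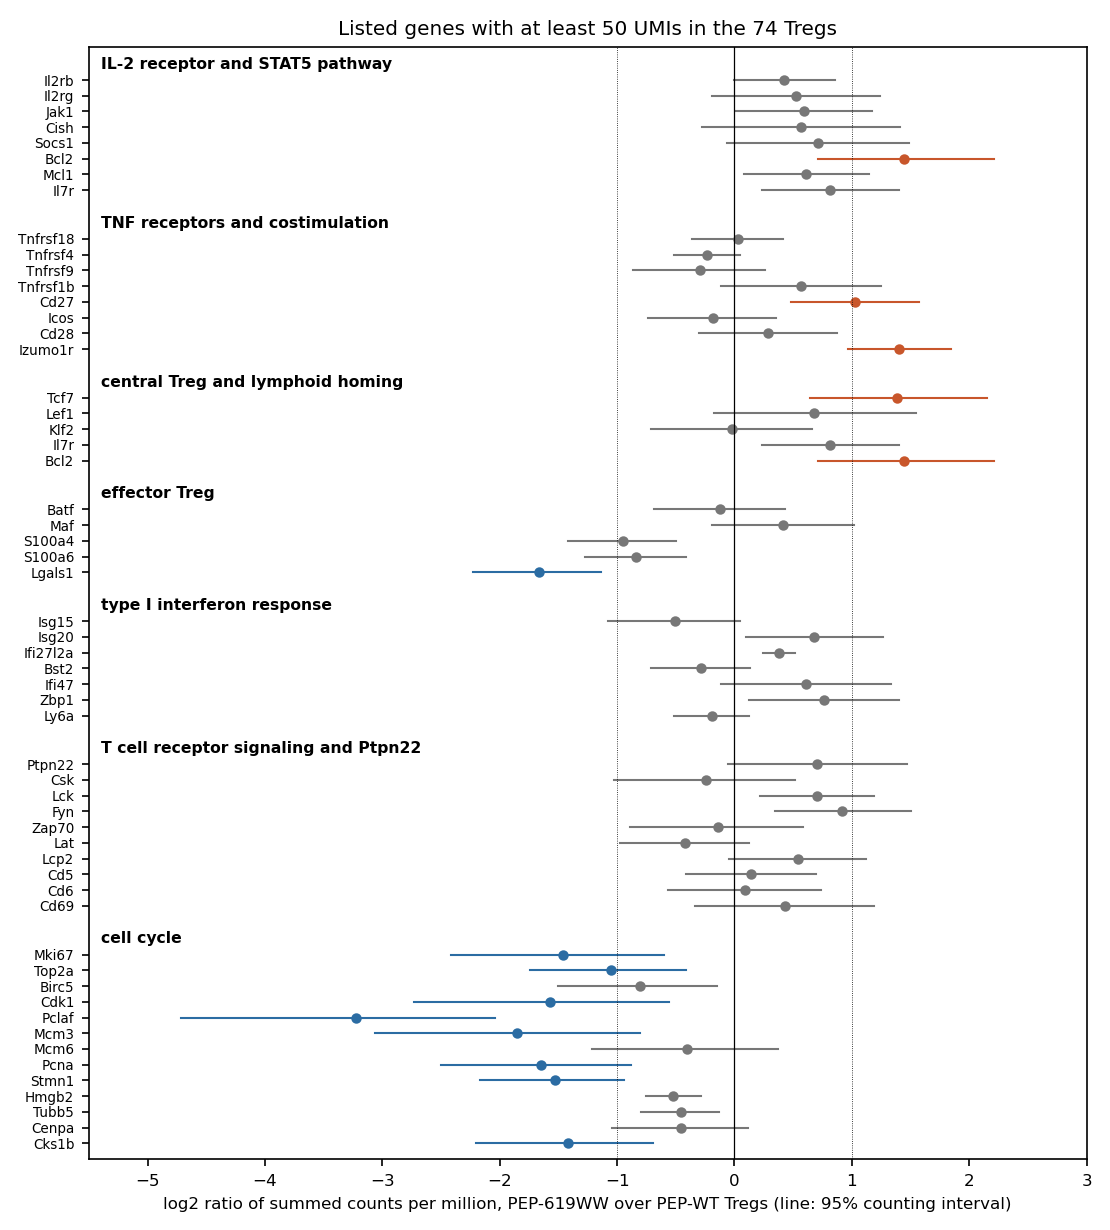
Log2 ratios (PEP-619WW over PEP-WT Tregs) of the tested genes of 7 lists with 95% counting intervals, dotted lines at 2-fold, and color for genes counted as higher (orange) or lower (blue) in PEP-619WW. The cell cycle genes all lie below 0, down to -3.22 for Pclaf, whereas the interleukin-2 pathway genes all lie above 0. So did the 12 T cell identity genes, which are not drawn as a list.

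The genes with the clearest ratios outside the lists are named by the bound of the interval nearest to equal levels. Higher in PEP-619WW Tregs were Hcst, Gm8369, Ttn, Itga4, 2310001H17Rik, Ly6c2, Pdcd4 and Rnf213, beside Slamf6 and Izumo1r. Hcst, which encodes the signaling adaptor DAP10, was at 89.5 CPM (26 UMIs in 17 cells) and 357 CPM (70 UMIs in 28 cells), a log2 ratio of 1.99 (1.33 to 2.70). Its levels in conventional cells were 400 and 455 CPM, so PEP-WT Tregs stood apart as low. Itga4, the integrin chain alpha 4, was at 99.9 and 331 CPM (1.73, 1.08 to 2.41), with 278 and 491 CPM in conventional cells. Pdcd4, an inhibitor of translation, was at 114 and 357 CPM (1.65, 1.03 to 2.29). Ttn, the gene of titin, was at 65.4 and 265 CPM, with 59.6% of its PEP-619WW UMIs in 1 cell.

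Lower in PEP-619WW Tregs were Hspd1, Dctpp1, Hist1h1b, Timm8a1, Lyar, Gadd45b, Srm, Npm1 and Hnrnpab, beside Pclaf. They include nucleolar (Npm1, Lyar) and mitochondrial (Hspd1, Timm8a1) proteins and the polyamine enzyme Srm. Hspd1, a mitochondrial chaperone, was at 909 CPM (264 UMIs in 20 cells) and 127 CPM (25 UMIs in 14 cells), a log2 ratio of -2.83 (-3.49 to -2.24). Npm1 was at 3940 and 1433 CPM (-1.46, -1.65 to -1.27), and at -0.69 with each cell weighing the same. Hspd1 and Npm1 were at 194 and 156 CPM and at 1479 and 1169 CPM in conventional cells, so the PEP-WT Tregs were the high group. A single PEP-WT Treg gave 25% of the Npm1, 34.8% of the Hnrnpab and 45.0% of the Srm UMIs. Gadd45b, a stress and activation gene, was at 155 and 25.5 CPM and had a ratio of -3.24 with each cell weighing the same, but was higher in PEP-619WW in the second libraries (1.99), whose PEP-WT side is 4 cells.

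Markers of other cell types also moved with the genotype. Hemoglobin genes were at 1150 UMIs in PEP-WT and 47 UMIs in PEP-619WW Tregs, and all 4 (Hbb-bs, Hbb-bt, Hba-a1 and Hba-a2) were counted as lower in PEP-619WW. A single PEP-WT Treg held 95.5% of them and a single PEP-619WW Treg 85.1%. Without these cells the levels were 189 and 37.3 CPM. Among erythroid markers Car2 had 0 and 17 UMIs. When hemoglobin, immunoglobulin, mitochondrial and ribosomal protein genes were left out of the total, 77 genes were higher and 126 lower, with 66 of the 69 and 126 of the 141 genes among them.

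Immunoglobulin transcripts had the opposite direction. Igkc was at 482 CPM in PEP-WT and 1229 CPM in PEP-619WW Tregs (1.35, 1.04 to 1.66), Ighg2c at 138 and 291 CPM (1.08, 0.47 to 1.70) and Ighm at 451 and 923 CPM (1.03, 0.70 to 1.37). Summed over the 9 plasma cell markers the level was 1178 and 2672 CPM, against 4712 and 5563 CPM in conventional cells, and Sdc1 and Derl3 were at 0. The part of these transcripts in the other genotype differences was not tested. Of 10 B cell markers Ms4a1 had 1 and 0 UMIs and Cd79b 3 and 2, and the list was at 355 and 321 CPM.

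Markers of other lymphocytes were at 0 only in part. Ncr1, Klre1 and Klra7 of NK cells were at 0, and Klrd1 and Klrk1 had 0 UMIs in PEP-WT and 6 and 7 in PEP-619WW. Eomes was higher in Tregs than in conventional cells (72.3 and 81.6 CPM against 21.4 and 9.98 CPM), with 61.9% and 93.8% of its UMIs in 1 cell of each library. Of 8 gamma delta T cell genes 7 were at 0 in all Tregs, as were all 4 platelet genes. Of 8 innate lymphoid cell genes 5 were at 0, Il5, Il13 and Il22 among them, but the list summed to 35 and 27 UMIs in 19 and 16 Tregs. These came from Gata3 (19 and 19 UMIs), Rora (12 and 8) and Il1rl1 (4 and 0), of which all 3 also stand in the effector Treg list. Of the myeloid list, summed at 462 and 739 CPM, Ly6g was at 0, C1qa had 3 and 1 UMIs, and Cybb had 12 and 30.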

How the data were processed

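Droplet 3′ single cell RNA sequencing was run on live CD45+ splenocytes, with 1 pooled library per genotype. The authors used Cell Ranger (6.0.0 in the submitters' processing notes) with an mm10 reference, and the files they deposited hold unnormalized UMI counts, with a row for each gene and a column for each barcode. Of 32285 gene identifiers 32158 were matched to symbols and coordinates of GRCm38. All deposited barcodes were kept (lowest depth 500 UMIs), no further cell filter was set, and no doublet caller was run, so doublets are kept.

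The gate, the lists and the alternatives were chosen with earlier results of these data known. UMIs were summed over the cells of a gate and scaled to the UMIs of those cells. Intervals were exact binomial for shares, Newcombe for differences, Poisson for levels and conditional binomial for ratios, at 95%. A level of 0 was set to 3 counts for a ratio. With 1 library per genotype no test and no p-value was possible. Genes needed 50 UMIs. Any list gene could be named (a few are not reported here), and beside them the 10 genes per direction, list genes included in the ranking, whose interval lay farthest from equal levels, with UMIs in at least 5 cells and without immunoglobulin, hemoglobin and T cell receptor variable genes. Alternatives changed the gate, the depth, the scaling, the minimum count, the comparison cells and the library set, and those without 1 cell, with the second PEP-619WW library alone and with Cd4 required of all CD8-negative T cells were chosen after seeing the data. The ratio code was tested on simulated data. All steps ran in Python 3.11.15, with tables in pandas 2.3.3, intervals from scipy 1.17.1, arrays in numpy 2.4.6 and plots from matplotlib 3.10.9.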

Additional observations from a re-analysis of the deposited data

Results flagged for a closer look

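The second libraries deposited under the same labels come from other mice by their sex-linked transcripts. Their genotype ratios are given in this report only beside the main ones. In them, 174 of 11029 PEP-619WW barcodes (1.58%, exact 95% interval 1.35 to 1.83%) passed the Treg rule, against 4 of 9539 PEP-WT barcodes (0.0419%, 0.0114 to 0.107%). This result was picked out because it lies in data outside the main measurement and above the PEP-WT library of that set. Among CD8-negative T cells the order was the opposite, with 4 of 8 (50%) in PEP-WT and 174 of 586 (29.7%) in PEP-619WW, a difference of -20.3 points (-49.0 to 8.43). The same PEP-WT library held 735 barcodes with melanocyte genes, 8 CD8-negative T cells and 6 B cells, against 99, 586 and 622 in the PEP-619WW library. The part of this difference in makeup in the Treg shares was not tested.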

How the results depend on the processing

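No paired analysis was possible because each genotype is 1 library, and for the same reason no library could be left out in turn. Counts below are of genes higher and lower in PEP-619WW Tregs (69 and 141), of program list genes counted in either direction (19), and of genes higher and lower in Tregs than in conventional cells (58 and 91). A gene under 50 UMIs in a setting got no value there. With Foxp3+ cells only, the genotype counts were 27, 76 and 7. With a Cd4 UMI required, they were 39 and 81, the conventional counts were 38 and 53, and the summed Th1 list turned to -0.19. Without barcodes with UMIs of other cell types, the share difference was 2.01 points of the barcodes left, not of all barcodes. The counts there were 2, 2 and 2, and 13 and 15. There, Ctla4 was at -0.77, and the summed lists at -0.16 (transcription factors), -0.46 (interleukin-2 pathway), -0.89 (other signature), -0.83 (central), -0.11 (interferon) and 0.25 (cell cycle). Thinned to 1000 UMIs before the gate, the counts were 0, 1 and 0, and 0 and 4, with the interleukin-2, signature and interferon lists at -0.22, -0.38 and -0.69. Thinned after the gate, they were 0, 5 and 1, and 18 and 9, with the suppressor, signature, Th1 and interferon lists at -0.041, -0.30, -0.18 and -0.47. With each cell weighing the same, genes were counted past 2-fold alone, without the interval. Against conventional cells the direction also had to be the same in both libraries. On this looser rule 71 genes were lower in PEP-619WW, and 207 were higher and 402 lower than in conventional cells. These counts are thus not on the rule of the main ones. A minimum of 20 UMIs gave 276, 300 and 39, and of 100 UMIs 13, 52 and 6. Against all other CD8-negative T cells, Hbb-bs, Hbb-bt and Hba-a1 turned to -1.19, -1.29 and -1.02. Without the deepest Treg of each library, the interferon list was at -0.059.

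The second libraries, from other mice and with 4 PEP-WT Tregs, gave share differences of 1.54 points of all barcodes and -20.3 points of CD8-negative T cells, 133 genes higher in PEP-619WW and 29 list genes. There, Ttn (-0.36), Slamf6 (-0.44), Dctpp1 (0.40), Gadd45b (1.99), Mcm3 (0.022), Pcna (0.024), Stmn1 (1.17), the suppressor list (-1.04) and the effector list (0.73) had the other direction. The second PEP-619WW library alone gave 276 genes higher and 168 lower than in conventional cells, with Lgals3 (0.20), Ccl3 (1.29), Ccl4 (0.29), Anxa2 (0.15), S100a6 (1.02), Lgals1 (0.59), Fos (0.045) and Igkc (3.08) turned. Of 447 values of single genes and lists between genotypes under an alternative, 331 moved by less than their counting interval, and of 470 against conventional cells 408 did. Between genotypes these were 61 of 61 with the cell quality limits, 54 of 54 with the other scaling, 51 of 55 without the deepest Treg, 40 of 45 without the cell richest in the gene, 39 of 45 with Foxp3+ cells only, 32 of 43 with Cd4 required, 31 of 47 with each cell weighing the same, 17 of 51 in the second libraries, 3 of 20 without UMIs of other cell types, 2 of 18 thinned after the gate and 1 of 8 thinned before it. The cell quality limits kept 41 of 42 PEP-WT and 32 of 32 PEP-619WW Tregs. The other scaling shifted all log2 ratios by the same small amount, such as the transcription factor list from 0.64 to 0.68. Those settings hardly changed the data, so their unmoved values say little about stability. The lower counts in thinned or smaller sets go with fewer genes tested, and other causes were not tested. Depth limits the genotype comparison to 290341 and 196106 Treg UMIs.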

Other observations

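The balance of immunoglobulin transcripts in Tregs was not that of the other T cells of the same library. Ighm UMIs per Igkc UMI were 0.936 in PEP-WT and 0.751 in PEP-619WW Tregs, against 0.0993 and 0.137 in conventional CD4 T cells, 0.0766 and 0.0400 in CD8 T cells and 0.0666 and 0.0551 in B cells. Within the Tregs the ratio was 1.17 and 0.914 in Foxp3+ cells and 0.444 and 0.410 in those chosen by Ikzf2 and Il2ra. The second PEP-619WW library, from other mice, did not show this order, with 315 Ighm and 107 Igkc UMIs in Tregs and 43 and 6 in conventional cells. That conventional value rests on few Igkc UMIs. Both genes were counted as higher in Tregs there, Ighm at 266 against 76.6 CPM (log2 ratio 1.80, 1.33 to 2.29) and Igkc at 90.4 against 10.7 CPM (3.08, 1.91 to 4.56).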
